A study of Mus musculus with 4 samples.

Results

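The genes examined here are those of opioid signalling through inhibitory G proteins: 4 opioid receptors, 4 precursors of opioid peptides, 5 alpha, 4 beta and 7 gamma subunits of G proteins, 4 channel subunits, 2 arrestins, 4 receptor kinases, 8 RGS proteins, 8 adenylyl cyclases and 2 catalytic subunits of protein kinase A. They were taken by exact gene name from a table of 42458 rows, in which all 52 were found. The RNA came from the spinal cord of 4 C57BL6 mice, each of which had received AAV2-CAG-tdT, an adeno-associated virus that makes cells express the red fluorescent tdTomato, by an intracerebroventricular injection. From each mouse 50 live tdTomato-positive cells were sorted as an enrichment of CSF-cNs, or cerebrospinal fluid-contacting neurons, the sensory neurons that line the central canal, and gave 1 library. The sources used here do not give the age of the mice. The CAG promoter is active in many cell types, so the construct itself does not restrict the label to these neurons. All 4 libraries belong to a single group with no control, so the data allow levels and their spread between mice, and no effect of a treatment.

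An opioid peptide is cut from a larger precursor and binds a receptor that activates G proteins of the Gi/o class. The alpha subunit then inhibits adenylyl cyclase, which lowers cAMP and the activity of protein kinase A, while the released beta and gamma subunits open GIRK potassium channels and inhibit calcium channels at nerve endings. RGS proteins end the signal by speeding GTP hydrolysis on the alpha subunit, and receptor kinases and arrestins switch off the receptor. The kappa receptor (Oprk1) is the main target of the dynorphins, the mu receptor (Oprm1) and delta receptor (Oprd1) bind enkephalins, and the nociceptin receptor (Oprl1) binds nociceptin.

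The peptide units within the precursors show what each gene can supply. The coding sequence of Pdyn, the dynorphin precursor (744 bases in its GENCODE M21 transcript), holds 3 in-frame copies of the enkephalin core, all followed by leucine. That of Penk, the enkephalin precursor (804 bases), holds 7, of which 6 are followed by methionine and 1 by leucine. Pomc, the precursor of beta-endorphin and of several non-opioid hormones (705 bases), holds 1 copy with methionine, and Pnoc, the nociceptin precursor (636 bases), holds none but has 1 nociceptin core. A few of these sites are shown, with the codon of the fifth residue in capitals. That residue sets Pnoc apart, while Penk shares leucine with Pdyn and methionine with Pomc. Positions count from the first base of the coding sequence.
Pdyn, 496 to 510: tatggcggctttTTG
Pdyn, 604 to 618: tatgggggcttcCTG
Pdyn, 661 to 675: tatggtggtttcCTG
Penk, 298 to 312: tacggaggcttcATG
Penk, 691 to 705: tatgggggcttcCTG
Pomc, 613 to 627: tacggtggcttcATG
Pnoc, 421 to 435: tttgggggcttcACC
The second Pdyn site and the leucine site of Penk carry the same 15 letters.

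Lists of 4 values give mice 1, 2, 3 and 4 in this order, and levels are CPM, counts scaled to library size with TMM normalization, unless given per kb of exon. The libraries held between 83007030 and 115479640 counts. For a gene with no count a limit of 3 counts was used, which covers counting error only and equals 0.0278 to 0.0348 CPM. The tdTomato construct had 5, 58, 13533 and 153379 counts, so the libraries of mice 1 and 2 go against the label of a tdTomato sort. Another row, for a second tdT construct, may share reads with it, which was not tested. The 9 CSF-cN markers summed to 20.3, 12.9, 941 and 846 CPM, led by Pkd2l1 and Pkd1l2, and P2rx2 had no count. Only 1 of the 8 tested CSF-cN markers was called above 10 CPM by the test described below. All 10 microglia markers were called, with sums of 32024 to 53801 CPM and P2ry12 among the highest. Oligodendrocyte markers (8 of 10 called, with Mbp among the highest) summed to 14826, 236, 19055 and 454 CPM, and astrocyte markers (3 of 10, led by Aldoc and S100b) to 1253, 161, 1349 and 299 CPM. Pan-neuronal markers (3 of 10, led by Snap25 and Uchl1) summed to 129, 105, 1087 and 410 CPM. The fibroblast list (1 of 4 tested, led by Dcn and Igf2) summed to 11.5, 0.203, 1023 and 116 CPM, with Col1a1 at 0. No marker was called among 12 ependymal genes (1.72 to 94.4 CPM summed, led by Fam183b and Rsph1), oligodendrocyte precursors (0.161 to 16.1 CPM, led by Tnr and Sox6, with Pdgfra and Gpr17 at 0) or endothelium (12.1 to 23.1 CPM, led by Pecam1 and Flt1, with Cdh5 at 0). The mural list (Acta2 and Rgs5 highest, Pdgfrb at 0) reached at most 2.79 CPM and the red blood cell list (Hbb-bs and Alas2 highest) 2.13 CPM. In such bulk libraries, fewer cells of a type and less RNA per cell cannot be told apart.

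Of the 52 genes, 50 had at least 10 counts in total and were tested. Oprd1 and the RGS gene Rgs8 had no count in any library. The level of each gene was compared with 10 CPM, a reference chosen for this purpose, by edgeR's quasi-likelihood test with Benjamini-Hochberg adjustment over 18522 genes. The test called 19 of the 50 above 10 CPM, where 36.7% of all tested genes were called, a share near that of these genes. Without any test, 18 of the 50 (36.0%) stood at 10 CPM or more in all 4 libraries, against 36.5% of all tested genes. DESeq2 called 18 above (34.0% of all tested genes) and limma-voom 19 (35.9%). edgeR called 0 below, against 0.664% of all tested genes. It rarely made such calls, as 41.4% of all tested genes reached 10 CPM in no library. A gene without a call can therefore still lie far below 10 CPM. At an unadjusted p under 0.05 there was 1 gene below, the receptor kinase gene Grk5, while DESeq2 called 2 below (11.1% of all tested genes) and limma-voom, whose mean is taken over log values, called 12 (33.3%). By role, the calls were 0 of 3 receptors, 0 of 4 precursors, 9 of 16 G protein subunits, 0 of 4 GIRK channel genes, 1 of 2 arrestins, 2 of 4 receptor kinases, 4 of 7 RGS genes, 1 of 8 cyclases and both catalytic subunits of protein kinase A. Differences between roles were not tested. The median log2 level relative to 10 CPM was 0.45 for the 50 genes and -0.07 for all tested genes. The median SD of log2(CPM + 1) between mice was 0.979 for the 50 and 0.575 for all tested genes, but 0.456 and 0.428 among the genes called above 10 CPM.

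**Figure D1:**
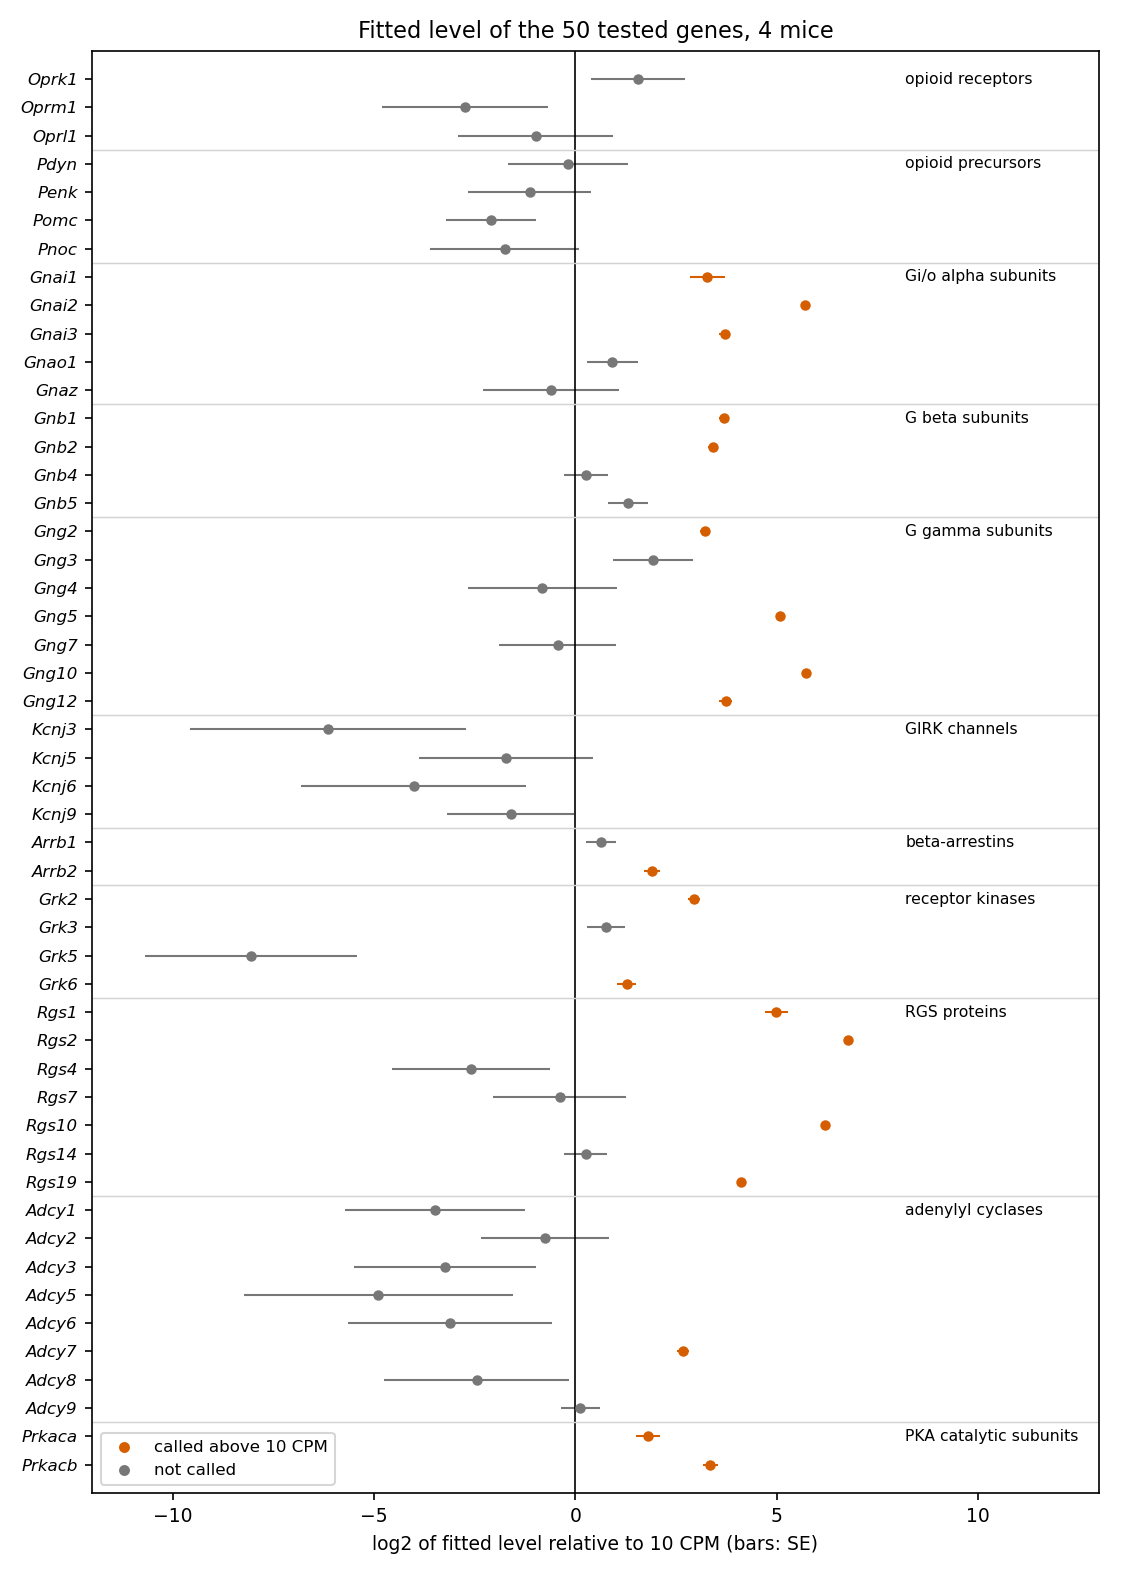
Fitted log2 level relative to 10 CPM (horizontal axis) for the 50 tested genes, ordered by role. Points are estimates over 4 mice, and bars are 1 SE derived from the test statistic, not the spread between mice. Orange marks the 19 genes called above 10 CPM, none of which is an opioid receptor, precursor or GIRK gene.

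Among the receptors, Oprk1 had the highest mean and was nearly confined to the libraries of mice 3 and 4. Oprk1 (chromosome 1, 5588466 to 5606131, plus strand of GRCm38) stood at 0.0185, 0.0535, 54.5 and 63.4 CPM, from 2, 5, 4700 and 5686 counts. Its values in mice 3 and 4 lay close together, and the other two libraries were near the counting floor. The mean was 29.5 ± 34.2 CPM (SD, n = 4), and the level was not called by edgeR (log2 level 1.56, SE 1.17, adjusted p = 0.32). With limma-voom the level lay on the other side of the reference, at -3.05 (adjusted p = 0.213), and without mouse 4 edgeR gave 0.83 (adjusted p = 0.689). When mice 1 and 2 were left out, a setting added once the data had been seen, Oprk1 was called (log2 level 2.62, adjusted p = 5.09e-04), but that choice keeps the libraries in which it was high.

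The other receptors were lower and did not follow Oprk1 in each library. Oprm1 (chromosome 10, 6758506 to 7038198) stood at 0, 1.65, 0.209 and 4.17 CPM, with its higher values in mice 2 and 4. Oprl1 (chromosome 2, 181715016 to 181720985) was at 0.0185, 0, 20.0 and 0.156 CPM, so nearly all of its 4-library total came from mouse 3. The delta receptor gene Oprd1 had no count. Its 95% intervals, for counting error only, reached up to 0.0342, 0.0395, 0.0428 and 0.0411 CPM. Per kb of exon, Oprk1 and Oprl1 were at 5.95 and 5.33 CPM per kb in mouse 3, and at 6.92 and 0.0416 CPM per kb in mouse 4. The library of mouse 3 therefore held both transcripts at like length-scaled levels, and that of mouse 4 mainly Oprk1. The CSF-cN sum (20.3, 12.9, 941 and 846 CPM) and the pan-neuronal sum (129, 105, 1087 and 410 CPM) were higher in the same libraries as Oprk1. Snap25, Rbfox3, Syt1, Tubb3, Stmn2 and Elavl4 ran with the pan-neuronal sum. Nefl was highest in mouse 2, Nefm lowest in mouse 3, Map2 lowest in mouse 4, and Uchl1 was higher in mouse 1 than in mouse 4. Ependymal, oligodendrocyte precursor and fibroblast sums were also higher in mice 3 and 4. The part of any list in the receptor levels was not tested.

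Pdyn and Penk were highest in mouse 3, Pnoc in mouse 4 and Pomc in mouse 2. Pdyn (chromosome 2, 129686565 to 129699844, minus strand) stood at 0.0185, 6.04, 29.1 and 0.0111 CPM, with 2 counts in mouse 1 and 1 in mouse 4. Penk (chromosome 4, 4133531 to 4138819, minus strand) was at 0, 2.27, 13.8 and 2.12 CPM, without a count in mouse 1. Pdyn and Oprk1 were thus both present in mouse 3, while mouse 4 held Oprk1 with almost no Pdyn. Pnoc (chromosome 14, 65400673 to 65425472, minus strand) was at 0.130, 0, 2.02 and 9.67 CPM, so most of it was in mouse 4, where its receptor gene Oprl1 was at 0.156 CPM.

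Pomc (chromosome 12, 3954951 to 3960642, plus strand) was the most even of the opioid genes with counts. It stood at 2.81, 3.45, 1.28 and 1.79 CPM, and its mean was 2.33 ± 0.978 CPM (SD, n = 4). Both of mice 1 and 2 were above both of mice 3 and 4, the reverse of Oprk1. None of the 7 tested receptor and precursor genes was called by edgeR in either direction, and 0 reached an unadjusted p under 0.05. Of all tested genes, edgeR called 36.7% above 10 CPM and 0.664% below. DESeq2 also called 0 of the 7 (34.0% of all tested genes above, 11.1% below) and gave no adjusted p for 4 of them. limma-voom called 2 of the 7 below 10 CPM, Oprm1 and Oprl1, where it called 33.3% of all tested genes below.

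**Figure D2:**
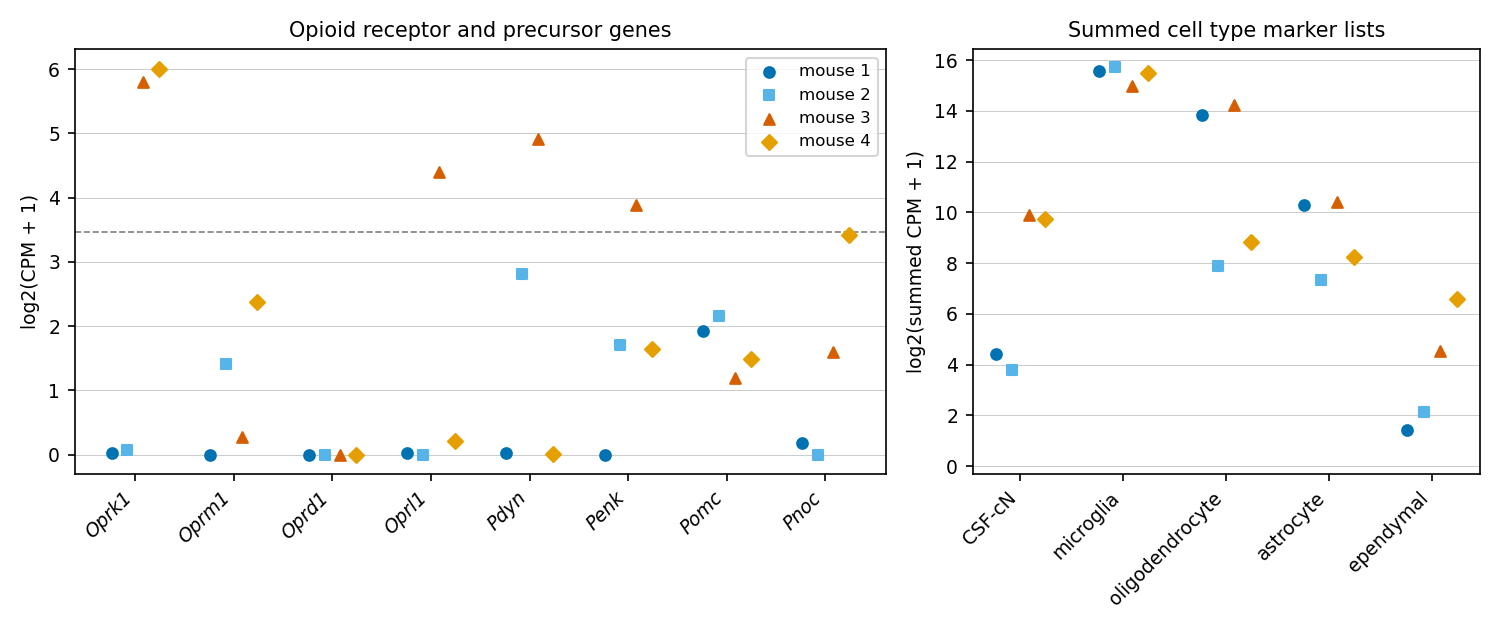
Left, log2(CPM + 1) of the 4 opioid receptor and 4 precursor genes, 1 point per mouse, with a dashed line at 10 CPM; right, the summed levels of 5 marker lists on the same scale. Oprk1 lies above the line in mice 3 and 4 only, Oprl1, Pdyn and Penk in mouse 3 only, and microglia markers are the highest list in each library.

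The 3 inhibitory alpha genes Gnai1, Gnai2 and Gnai3 had counts in all libraries, led by Gnai2. Gnai2 (chromosome 9, 107614125 to 107635367, minus strand) stood at 481, 668, 387 and 540.1 CPM, with a mean of 519 ± 118 CPM (SD, n = 4), and was called above 10 CPM (log2 level 5.70, SE 0.07, adjusted p = 1.35e-08 by edgeR). Its highest and lowest libraries differed 1.73-fold. Gnai3 stood at 177, 88.8, 164 and 93.0 CPM and was also called (log2 level 3.71, SE 0.13, adjusted p = 1.13e-06). Mice 1 and 3 were the higher pair for Gnai3, and mice 2 and 4 for Gnai2.

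Gnai1, the third inhibitory alpha gene, varied most of the called subunits. It stood at 142, 5.53, 199.7 and 41.3 CPM, below the reference in mouse 2, and was called (log2 level 3.28, SE 0.43, adjusted p = 8.46e-04). Without mouse 3 its log2 level was 2.64. Gnai1 was high and low in the same libraries as the oligodendrocyte markers (14826, 236, 19055 and 454 CPM), whose part in the level was not tested. The astrocyte sums (1253, 161, 1349 and 299 CPM) ran alike, but mainly through Aldoc and S100b. Slc1a3 (115, 122, 52.2 and 155 CPM) was lowest in mouse 3, Gfap was highest in mouse 2 and Gja1 in mouse 4. The astrocyte list as a whole thus did not follow Gnai1. Gnao1, the Go subunit abundant in neurons, was at 10.3, 1.08, 47.0 and 17.3 CPM without a call (adjusted p = 0.294). Gnaz, the Gz subunit, was at 0, 0.0107, 20.1 and 6.15 CPM, so it was essentially without counts in mice 1 and 2.

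Scaled per kb of exon, Gnai2 made up 55.8%, 85.9%, 45.3% and 76.1% of the summed alpha level. Gnai1 made up 19.9%, 0.858%, 28.2% and 7.01%, and Gnao1 at most 1.88%. Gnai2 was thus the main Gi/o alpha transcript in each library, with a smaller share where Gnai1 was high. The within-mouse log2 ratio of Gnai2 to Gnai3 averaged 1.82 ± 0.82 (SD, n = 4) and that of Gnai2 to Gnao1 averaged 6.93 ± 2.17 (SD, n = 4), both above 0 in 4 of 4 mice. For each, the exact permutation test over the 16 sign patterns of 4 mice, two-sided, gave the smallest p that it can reach, which was 0.161 after adjustment over the 9 gene pairs compared, so no pair could pass 0.05. The same held for 5 of the other 7 pairs.

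Of the beta subunits, Gnb1 and Gnb2 were even across mice. Gnb1 stood at 100.5, 177, 113 and 125 CPM and Gnb2 at 84.9, 127, 95.8 and 117 CPM. Both were called above 10 CPM (edgeR, adjusted p = 4.68e-07 and 5.06e-07). Per kb they held 43.1% ± 6.30 and 44.8% ± 4.90 (SD, n = 4) of the beta level, and their log2 ratio was -0.06 ± 0.16 (SD, n = 4; exact permutation p = 0.5). Without length scaling the sign of that ratio turned, to 0.26.

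Gnb5, the atypical beta subunit that pairs with RGS proteins such as Rgs7, behaved otherwise. It stood at 3.11, 14, 51.2 and 31.1 CPM, higher in mice 3 and 4 than in the other two. It was not called (log2 level 1.31, SE 0.49, adjusted p = 0.0899), and it was called without mouse 1 (log2 level 1.72, adjusted p = 0.0114). Without mouse 3 its log2 level was 0.668 (adjusted p = 0.457), and with limma-voom it was 0.59 (adjusted p = 0.396). Its per-kb share of the beta level was 2.00%, 5.35%, 22.4% and 13.5%. Gnb4 was at 5.68, 6.05, 30.5 and 5.84 CPM, with mouse 3 standing apart.

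Gng10 and Gng5 led the gamma subunits. Gng10 (chromosome 4, 59035088 to 59041903, plus strand) stood at 467, 679, 354 and 633 CPM and Gng5 at 358, 399, 228 and 367 CPM. Both were lowest in mouse 3 and were called above 10 CPM (log2 level 5.74 and 5.08, adjusted p = 2.09e-08 and 3.94e-08). The Gng10 value is uncertain, because 71.99% of its exonic bases are shared with the gene model Gm20503 on the same strand. Per kb, Gng10 held 66.2% ± 7.13 and Gng5 20.2% ± 2.90 (SD, n = 4) of the gamma level, and Gng5 was below Gng10 in 4 of 4 mice (log2 ratio -1.72 ± 0.19).

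Gng12 was the next gamma gene by mean level. It stood at 161, 95.0, 205 and 71.9 CPM, higher in mice 1 and 3, and was called (adjusted p = 2.60e-06). Gng2 was at 62.0, 100.3, 104 and 105 CPM and was called as well (adjusted p = 1.26e-06). Of its exonic bases, 20.43% overlap the gene model Gm48283 on the opposite strand, which has no row of its own. Gng3 and Gng4, gamma genes known from neurons, were high in mice 3 and 4 only. Gng3 stood at 0.0370, 0.706, 80.9 and 70.9 CPM and was not called (log2 level 1.93, SE 0.98, adjusted p = 0.186). Its overlap with Bscl2 on the opposite strand covers 24.22% of its exonic bases, and these libraries do not keep the strand. Bscl2 stood at 111, 123, 105 and 128 CPM, and its part in the Gng3 counts was not tested. Gng4 was at 0, 0, 15.8 and 6.88 CPM, at least 570-fold higher in mouse 3 than the limit of 3 counts in mouse 1. Gng7 followed the other split, at 15.3, 0.235, 14 and 0 CPM.

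**Figure D3:**
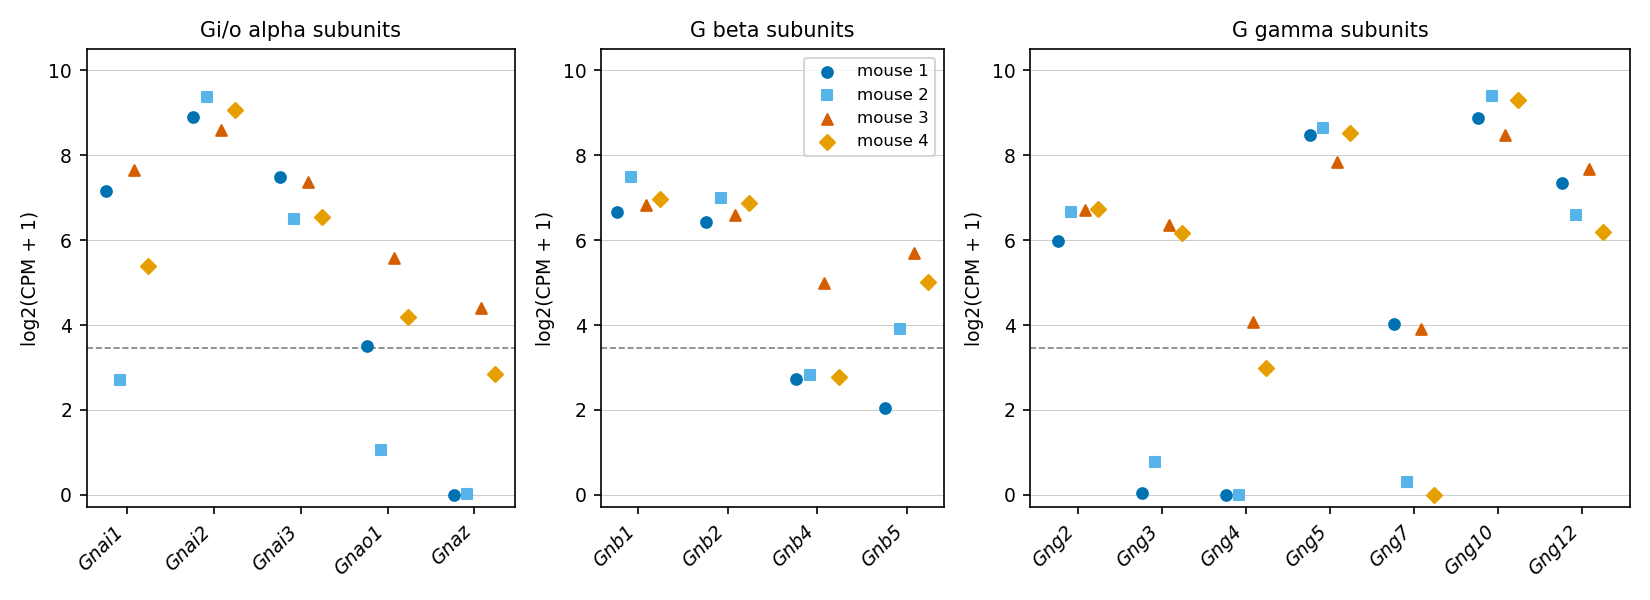
Levels of the alpha, beta and gamma subunit genes as log2(CPM + 1), 1 point per mouse, with a dashed line at 10 CPM. Gnai2, Gnb1, Gnb2, Gng5 and Gng10 cluster tightly above the line, while Gnaz, Gng3 and Gng4 reach it in mice 3 or 4 only.

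GIRK channel subunits, the potassium channels opened by beta and gamma subunits, were under 10 CPM in each library except for Kcnj5 in mouse 4. Kcnj9 stood at 0, 4.62, 4.42 and 4.07 CPM, level in 3 mice and without a count in mouse 1. Kcnj5 was at 0, 0, 1.11 and 11.0 CPM and Kcnj6 at 0, 0, 2.01 and 0.468 CPM, with counts in mice 3 and 4 only. Kcnj3 had 49 counts in mouse 3 (0.568 CPM) and none elsewhere. Of its exonic bases, 31.08% overlap the gene model Gm26794 on the opposite strand, which has no row of its own. Kcnj3, Kcnj5 and Kcnj6 therefore all lacked counts in mice 1 and 2. edgeR called 0 of the 4 GIRK genes (36.7% of all tested genes above 10 CPM, 0.664% below), and none reached an unadjusted p under 0.05. DESeq2 called 1 below 10 CPM (Kcnj3), against 11.1% of all tested genes, and limma-voom 3 (Kcnj3, Kcnj5 and Kcnj6), against 33.3%.

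Between the arrestins, which uncouple the phosphorylated receptor, Arrb2 exceeded Arrb1. Arrb2 stood at 34.1, 52.8, 23.0 and 39.1 CPM and was called (log2 level 1.90, SE 0.20, adjusted p = 2.41e-04). A second, numbered row of Arrb2 held 29.5, 48.4, 20.8 and 34.8 CPM, nearly the same values, so the level of Arrb2 is uncertain. With that row added its log2 level was 2.82. Arrb1 was at 5.70, 17.4, 18.3 and 20.8 CPM, lowest in mouse 1, and was not called (adjusted p = 0.233). Per kb, Arrb2 was above Arrb1 in 4 of 4 mice, with a mean log2 ratio of 3.21 ± 0.89 (SD, n = 4).

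Of the kinases that phosphorylate activated receptors, Grk2 was the most abundant. Grk2 (chromosome 19, 4286001 to 4306222, minus strand) stood at 58.4, 114, 62.9 and 72.3 CPM and Grk6 at 17.4, 35.9, 21.1 and 22.4 CPM. Both were highest in mouse 2 and were called (adjusted p = 4.57e-06 and 0.0051). Their ratio was the steadiest of the 9 pairs, with a mean log2 ratio per kb of 1.56 ± 0.07 (SD, n = 4), a 2.95-fold difference. Grk3 was at 9.09, 39.3, 5.97 and 13.5 CPM, again highest in mouse 2, and was not called (adjusted p = 0.247). Grk5 was close to absent, with 5, 0, 8 and 1 counts, and lay below the reference at an unadjusted p of 0.0217 but not after adjustment by edgeR (adjusted p = 0.0573). It was called below 10 CPM with no filter (adjusted p = 0.0489), by DESeq2 (0.00143) and by limma-voom (0.00151).

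Per kb of exon, Rgs10 had the highest mean of all 52 genes (430.9 CPM per kb), ahead of Gng10 (406) and Rgs2 (299). Rgs2 (chromosome 1, 143999338 to 144004161, minus strand), a regulator best known for acting on Gq, stood at 1632, 1106, 537 and 1071 CPM, lowest in mouse 3. Rgs10 (chromosome 7, 128373621 to 128418758, minus strand), which acts on Gi/o subunits and is known from microglia, stood at 625, 1049, 478 and 797 CPM. Both were called above 10 CPM (log2 level 6.76 and 6.20, adjusted p = 1.37e-08 and 1.44e-08 by edgeR). Microglia markers were lowest in mouse 3 too (49297, 53801, 32024 and 46377 CPM), and their part in these levels was not tested.

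Rgs1, a regulator known from immune cells, was set by 1 library. It stood at 943, 114, 87.9 and 126 CPM, so mouse 1 was far above the other 3, which lay close together. It was called (log2 level 4.99, SE 0.29, adjusted p = 1.14e-05), and without mouse 1 its log2 level was 3.48 (adjusted p = 1.67e-05). The mean was 318 ± 417 CPM (SD, n = 4), a spread between mice that this SE does not describe. Rgs19, which acts on Gi/o subunits, stood at 135, 239, 123 and 203 CPM and was called (adjusted p = 3.45e-07). DESeq2 gave Rgs1 no adjusted p and called the other 18.

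No other RGS gene was called. Rgs7, the partner of Gnb5 in neurons, was at 0.00926, 0.995, 29.5 and 0.0111 CPM, present in mouse 3 and nearly absent from mouse 4, where Gnb5 was at 31.1 CPM. Rgs4 was at 0.0463, 0.139, 0.0695 and 6.35 CPM, with nearly all of its counts in mouse 4. Rgs14 was at 15.6, 23.0, 5.83 and 3.34 CPM, above the reference in mice 1 and 2. Per kb, Rgs10 held 36.0%, 58.5%, 55.7% and 53.4% of the RGS level and Rgs2 44.3%, 29.1%, 29.5% and 33.8%. Rgs10 was above Rgs2 in 3 of 4 mice (log2 ratio 0.57 ± 0.60, SD, n = 4; exact permutation p = 0.25), a difference within the spread, and without length scaling the ratio was -0.51.

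The 250 bases before the start of 2 called RGS genes are printed because they differ in the motifs found there. RefSeq entries on GRCm38.p6 matched 38 of the 52 genes. The searches covered both strands for CGTCA, the short form of the cAMP response element, for its full form TGACGTCA, which contains CGTCA, and for GAGGAAGT, a sequence bound by PU.1, a transcription factor of myeloid cells. CGTCA was present for 10 of 38 genes and in 17.8% of all 32851 windows of this length, TGACGTCA for 0 of 38 and in 1.55%, and GAGGAAGT for 2 of 38 (Rgs19 and Adcy3) and in 2.44%. A gene was counted if any of its windows held the motif. The 38 genes had 33 windows on the plus strand and 26 on the minus strand. Counts of genes and shares of windows are therefore unlike measures, and no enrichment can be read from them. Capitals mark CGTCA or its reverse complement in Rgs2 (chr1:144004150-144004399, minus strand) and GAGGAAGT in Rgs19 (chr2:181693978-181694227, minus strand).
Rgs2: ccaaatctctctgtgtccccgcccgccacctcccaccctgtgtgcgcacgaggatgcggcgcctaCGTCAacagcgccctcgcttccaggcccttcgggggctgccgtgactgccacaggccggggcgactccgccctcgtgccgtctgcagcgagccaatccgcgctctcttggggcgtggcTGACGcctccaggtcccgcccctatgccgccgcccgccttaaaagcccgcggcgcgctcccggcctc
Rgs19: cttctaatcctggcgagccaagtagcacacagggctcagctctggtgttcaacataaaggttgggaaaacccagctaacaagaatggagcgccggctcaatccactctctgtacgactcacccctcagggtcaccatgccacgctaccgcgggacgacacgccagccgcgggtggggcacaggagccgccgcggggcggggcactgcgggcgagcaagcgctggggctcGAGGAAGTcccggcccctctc
A match describes these letters only, and binding was not measured.

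**Figure D4:**
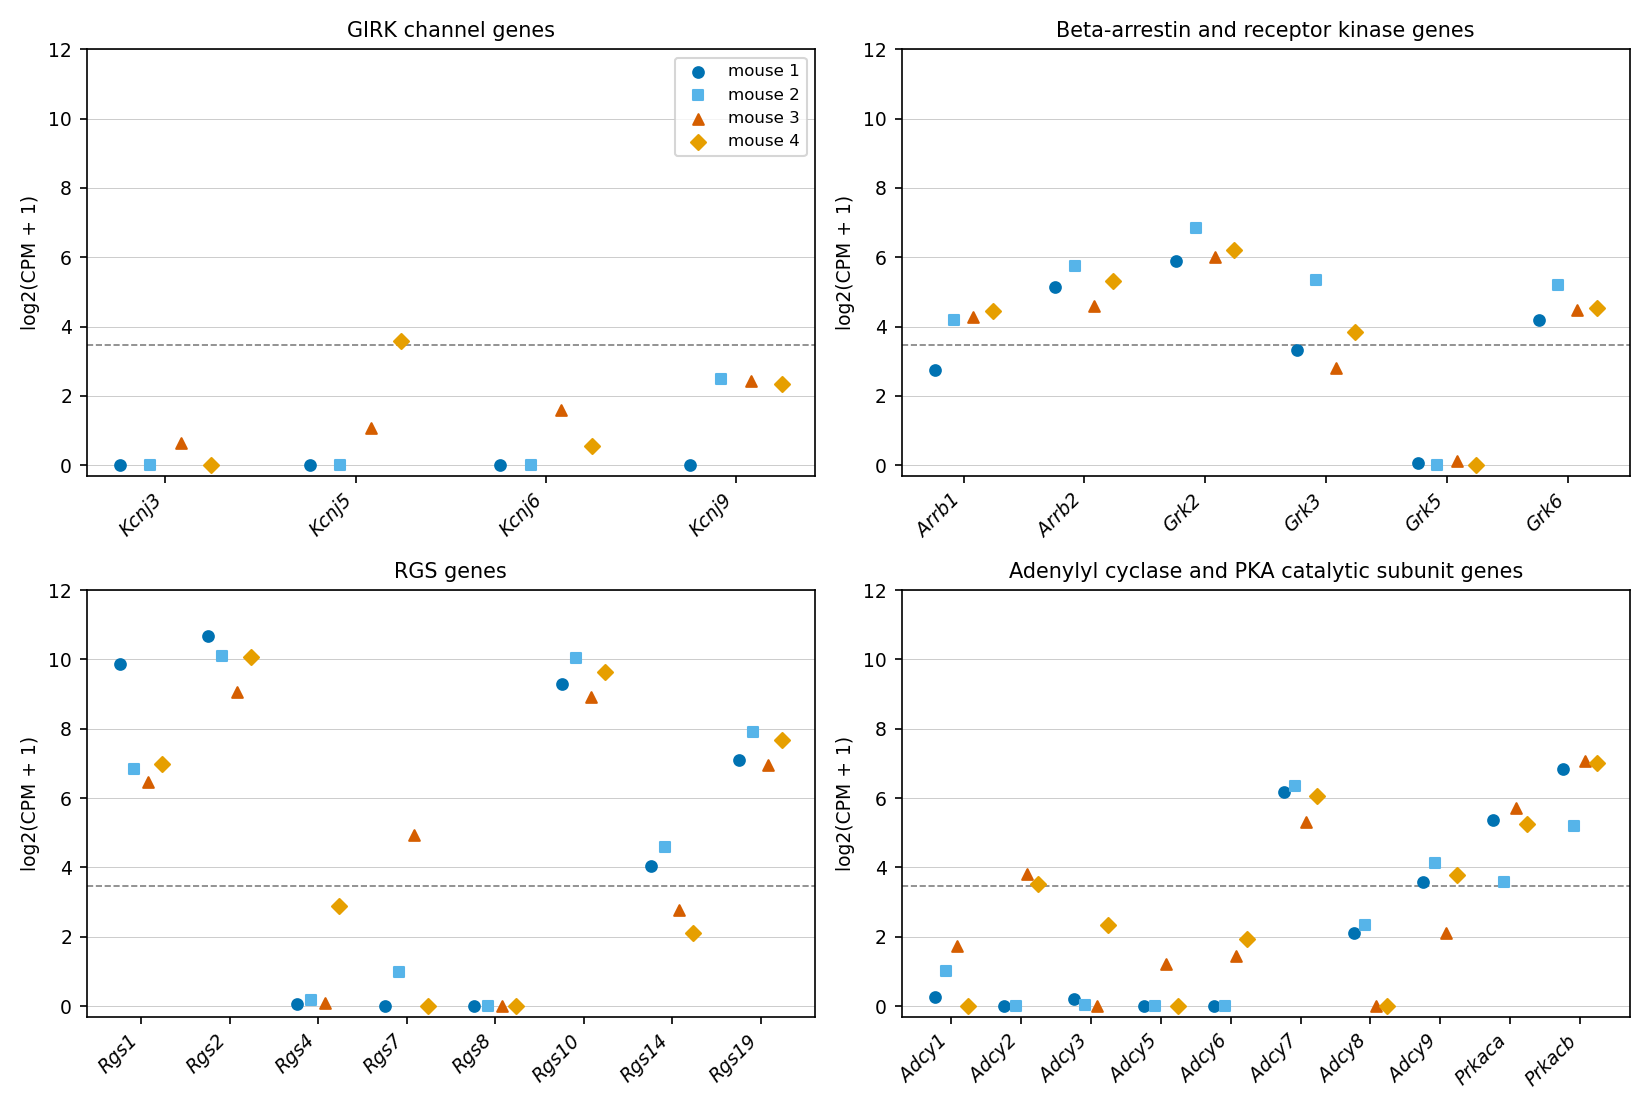
Levels of the GIRK channel, arrestin, receptor kinase, RGS, adenylyl cyclase and protein kinase A genes as log2(CPM + 1), 1 point per mouse, with a dashed line at 10 CPM. Rgs2 and Rgs10 give the highest points, and Rgs1 shows mouse 1 apart from the other 3 libraries.

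Adcy7 was the only one of 8 adenylyl cyclase genes called above 10 CPM. Adcy7 (chromosome 8, 88272403 to 88329962, plus strand), a cyclase known to be stimulated by beta and gamma subunits, stood at 70.7, 80.3, 38.8 and 65.7 CPM (log2 level 2.68, SE 0.15, adjusted p = 9.72e-06). Adcy9 followed at 11.0, 16.5, 3.29 and 12.8 CPM, also lowest in mouse 3, and was not called (adjusted p = 0.833). Adcy7 was above Adcy9 per kb in 4 of 4 mice (log2 ratio 2.27 ± 0.51, SD, n = 4).

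The other cyclases differed in the libraries that held them. Adcy2 was at 0.00926, 0.0107, 13.1 and 10.6 CPM, with 1 count in each of mice 1 and 2. Adcy8, a cyclase stimulated by calcium, showed the opposite, at 3.28, 4.03, 0 and 0 CPM. Adcy6 (0, 0, 1.75 and 2.84 CPM) and Adcy5 (0, 0, 1.34 and 0 CPM), both inhibited by Gi alpha subunits, had no count in mice 1 and 2. Adcy3 reached 4.08 CPM in mouse 4 and at most 0.148 CPM elsewhere, and 22.09% of its exonic bases overlap Cenpo on the other strand (20.7, 33.6, 18.5 and 38.3 CPM). Adcy1 reached 2.34 CPM in mouse 3. As a result the cyclase make-up differed: Adcy7 held 80.3%, 76.1%, 56.9% and 61.7% of the per-kb level, and Adcy2 held 0.0168%, 0.0162%, 30.6% and 15.9%.

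Both catalytic subunits of protein kinase A were called above 10 CPM. Prkaca stood at 40.1, 10.9, 51.7 and 36.9 CPM and Prkacb at 113, 35.7, 134 and 128 CPM (adjusted p = 0.00238 and 1.23e-05). Both were lowest in mouse 2. Per kb the subunits were nearly equal, with Prkaca at 53.9% ± 3.33 (SD, n = 4) and a log2 ratio to Prkacb of 0.22 ± 0.19, above 0 in 4 of 4 mice. Prkacb has the longer exons, and without length scaling the ratio was -1.59.

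**Figure D5:**
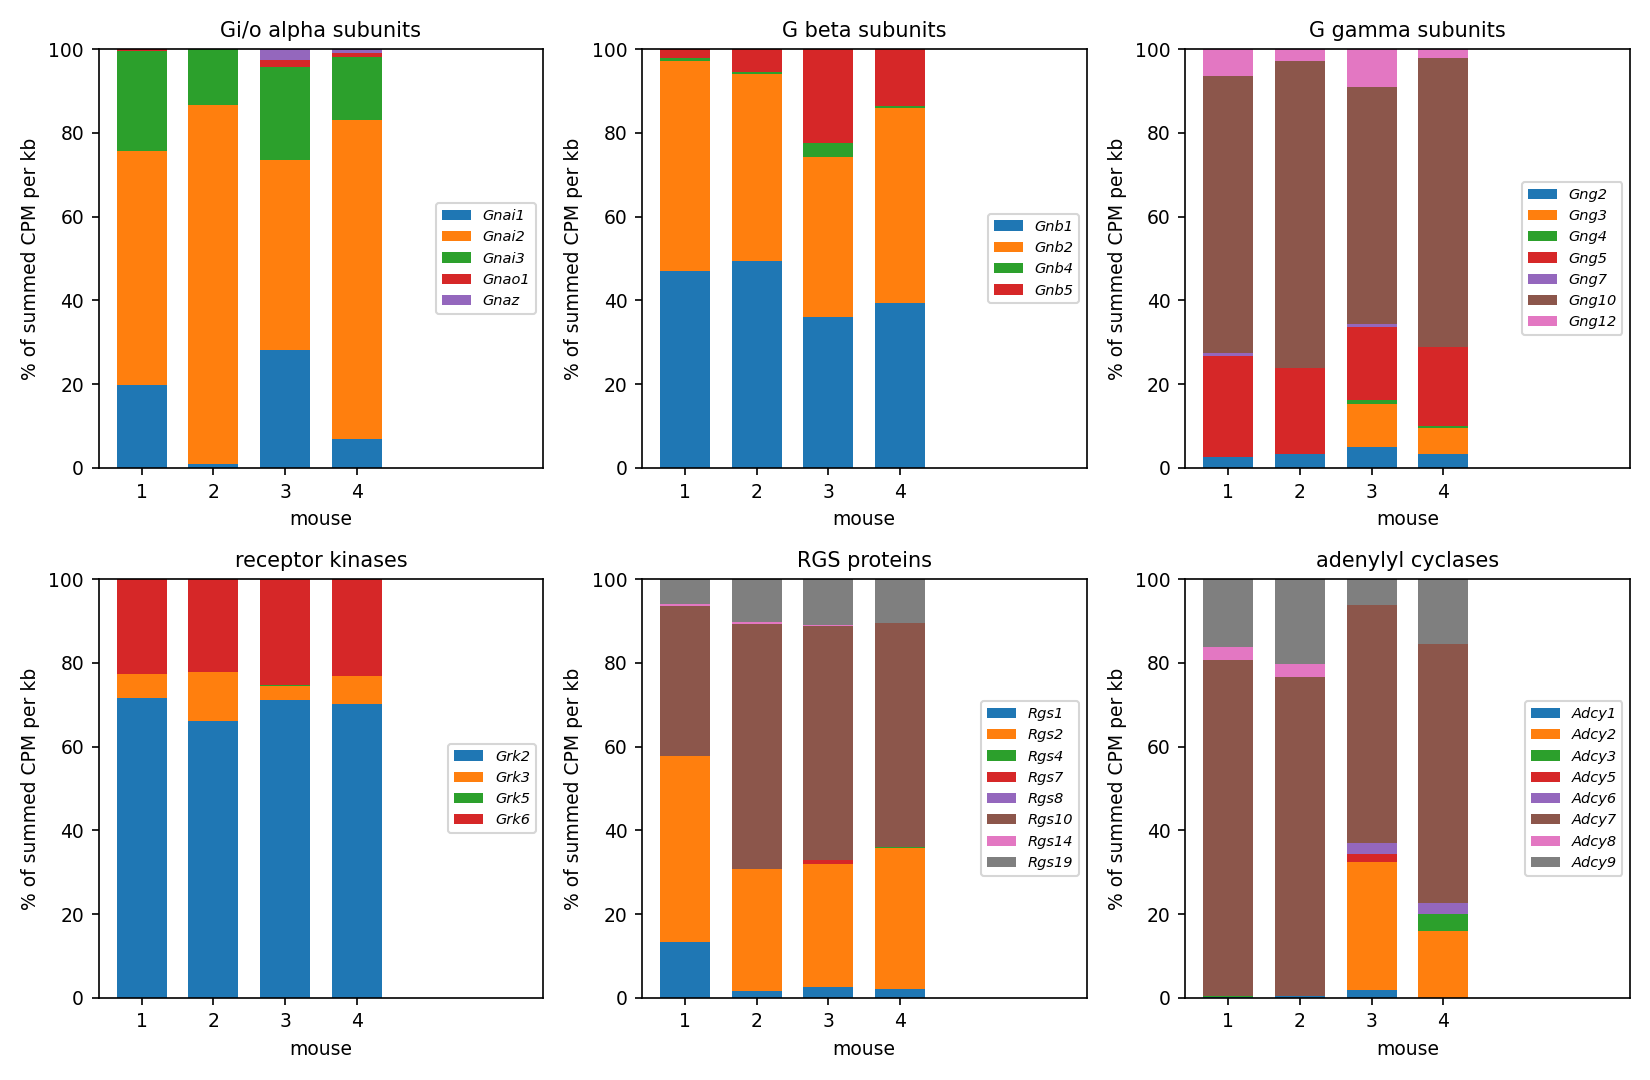
Share (percent) of the summed CPM per kb of exon within 6 gene families for each mouse, as stacked bars from 0. Grk2 lies between 66.1% and 71.5% in the 4 mice, while Gnai1 ranges from 0.858% to 28.2%, Gnb5 from 2.00% to 22.4% and Adcy2 from 0.0162% to 30.6%.

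The genes were grouped by the rank order of the libraries, whatever the size of the difference. Both of mice 3 and 4 exceeded both of mice 1 and 2 for 15 of the 50 tested genes (30.0%), where 18.9% of all tested genes did so. These were Oprk1, Oprl1, Pnoc, Gnao1, Gnaz, Gnb5, Gng2, Gng3, Gng4, Kcnj5, Kcnj6, Arrb1, Adcy2, Adcy6 and Prkacb. Both of mice 2 and 4 exceeded both of mice 1 and 3 for 14 genes (28.0%, against 18.1%), among them Gnai2, Gnb1, Gnb2, Gng5, Gng10, Grk2, Rgs10 and Rgs19. The opposite held for 6 genes (12%, against 18.1%): Gnai1, Gnai3, Gng7, Gng12, Grk5 and Prkaca. Both of mice 1 and 2 exceeded both of mice 3 and 4 for 5 genes (10%, against 14.7%): Pomc, Rgs2, Rgs14, Adcy7 and Adcy8. Some members differed little or rest on few counts. Gng2 was at 100.3 CPM in mouse 2 against 104 and 105 CPM in mice 3 and 4. Prkacb was at 113 CPM in mouse 1 against 134 and 128 CPM. Oprl1 had 14 counts in mouse 4, and Grk5 had 5, 0, 8 and 1 counts. No test was made of these shares.

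By rank, the first group was higher in the libraries with more CSF-cN marker counts, though only slightly for Gng2 and Prkacb. Its members Oprl1, Gnaz, Gng4, Kcnj5, Kcnj6, Adcy2 and Adcy6 had no more than 3 counts in each of mice 1 and 2, as did Kcnj3 and Adcy5, which makes 9 of 50 (18%, against 14.4% of all tested genes). Only Adcy8 had so few in both mice 3 and 4 (2.0%, against 5.65%). Besides CSF-cN markers, the ependymal, oligodendrocyte precursor, fibroblast and pan-neuronal sums were also higher in mice 3 and 4 than in mice 1 and 2, so the cell type behind these transcripts cannot be told apart in these libraries. Within the pan-neuronal list, Nefl, Nefm, Map2 and Uchl1 did not follow the sum. The precursor sum came from Tnr and Sox6, with Pdgfra and Gpr17 at 0. The fibroblast sum came mainly from Dcn, with Col1a1 at 0 and Col1a2 at 6.96, 0.0107, 5.04 and 0 CPM. Without mice 1 and 2, 23 of 48 tested genes were called above 10 CPM, where 37.0% of all tested genes were. The 19 calls were kept, and Oprk1, Gnao1, Gnb5 and Gng3 were added, all of which are high in the 2 libraries kept.

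Other genes of the pathway were read in the same fit. Of 88 such genes in 7 lists, 82 were tested, 32 were called above 10 CPM (36.7% of all tested genes) and 0 below (0.664%), and 1 lay below at an unadjusted p under 0.05. DESeq2 called 2 of them below, against 11.1% of all tested genes, and limma-voom 16, against 33.3%. Among the other G protein subunits 7 of 13 were called. Gnas, which codes for the stimulatory alpha subunit Gs, stood at 619, 904, 1159 and 1016 CPM, lowest in mouse 1. Gna15 (221, 246, 129 and 207 CPM), a Gq-class subunit of blood cells, and Gna13 (70.7, 153, 92.6 and 145.9 CPM) were called too.

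No test compared the lists, and the counts below stand against the 36.7% of all tested genes called above 10 CPM. Of the MAPK genes, which carry the signal to growth-related kinases, 9 of 10 were called, with Map2k1 at a mean of 212 ± 39.6 CPM and Mapk3 at 99.1 ± 27.1 CPM (SD, n = 4). Of the genes downstream of cAMP 8 of 21 were called, led by the kinase regulatory subunit Prkar1a (431 ± 65.4 CPM), the phosphodiesterase Pde3b (204 ± 76.6 CPM) and the anchoring protein Akap13 (137 ± 47.4 CPM; SD, n = 4). Among the remaining RGS, cyclase and kinase family members only Rgs3 was called of 11 (21.2 ± 5.11 CPM, SD, n = 4), and Rgs11 and Rgs17 were next by mean, at 7.05 and 4.50 CPM. The call of Rgs3 (adjusted p = 0.0122) was lost with DESeq2 (0.0543), without mouse 2 (0.0516), without mouse 4 (0.0866) and without mice 1 and 2 (0.0967).

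Calcium channel genes of nerve endings, the other target of beta and gamma subunits, gave 0 calls of 9 in edgeR and none at an unadjusted p under 0.05. DESeq2 called 1 of them below 10 CPM, against 11.1% of all tested genes, and limma-voom 3, against 33.3%. Cacnb4 stood at 48.7, 0.107, 51.8 and 12.6 CPM, Cacna2d3 at 0.0926, 0.0214, 30.4 and 11.5 CPM, and Cacnb2 ran from 5.31 to 17.2 CPM. Cacna2d3 was thus higher in mice 3 and 4, and Cacnb4 in mice 1 and 3, where oligodendrocyte markers were high. Without mouse 2, Cacnb4 was called (log2 level 1.93, adjusted p = 0.00664).

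Among helpers of the receptor and G protein cycle 2 of 7 were called. Gprasp1, which sorts internalized receptors to lysosomes, stood at 42.6, 27.5, 143 and 173 CPM and was called (adjusted p = 1.02e-04). Its relative Gprasp2 stood at 0.306, 2.15, 107 and 64.4 CPM and was not called (adjusted p = 0.0951), but was called without mouse 1 (0.0272). Both were higher in mice 3 and 4 than in mice 1 and 2. Ric8a, a chaperone of alpha subunits, was even at 77.4 ± 13.1 CPM (SD, n = 4). For the processing and breakdown of opioid peptides, 5 of 11 were called, with Cpe, a carboxypeptidase that trims peptides, at 315, 5.62, 587 and 362 CPM. Pcsk1n (1.5, 1.15, 157 and 178 CPM) and Scg5 (8.45, 0.182, 149.7 and 146 CPM), both binding partners of the convertases that cut precursors, were also called and were high in mice 3 and 4. Both calls were lost with limma-voom (adjusted p = 0.794 and 0.832), without mouse 3 (0.115 and 0.152) and without mouse 4 (0.138 and 0.143).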

How the data were processed

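The deposited table of raw counts has 42458 rows and, for each mouse, 2 columns, which were taken as repeat runs and summed. The authors also deposited log2 values, which follow from the summed counts and were not used for any result. Tools named in the submitters' processing notes are DESeq2, RSEM, STAR, Trim Galore and FastQC, with genome build mm10 and with roles and versions not given in the sources used here. Per the labels, cDNA was made with SMART-Seq v4 and 11 PCR cycles and libraries with Nextera XT, which keep no strand and no molecular identifiers, so intervals and floors cover counting error only, and overlapping genes cannot be told apart. Each count column had a sample.

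The genes and lists were chosen with earlier results of these data known. The members and, of each role, the 3 with the highest mean are given for each mouse; of each other pathway list the 3 with the highest mean are named, and of each marker list the 2 with the highest mean. Some genes that this rule takes are not reported here. Motifs and promoters were picked after the levels were seen.

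Genes with at least 10 counts in total were tested with edgeR 4.0.16 (R 4.3.3, TMM), by a quasi-likelihood F test of an intercept-only model whose offset sets 0 to 10 CPM. F came from the model's deviances, with the Poisson bound, because the tool's function takes no single-column design. The SE is the absolute log2 level over the root of F, so it follows the test and does not measure the spread between mice. The threshold was an adjusted p of 0.05. Level p-values set the distance of the fitted level from 10 CPM against a modelled spread between these 4 libraries, with variances moderated over all tested genes. A called gene can therefore still vary widely between mice. Pairs used log2 of CPM per kb + 0.1 and an exact sign-flip test (16 patterns). Exon lengths and positions are GENCODE M21 on GRCm38. The run 1 to run 2 ratio of values with at least 100 counts was 0.752 to 1.198. Alternatives were DESeq2 1.42.0, limma-voom (limma 3.58.1), DESeq2 size factors, no filter, each run alone, and leaving out mice. Scripts were tested on simulated data. Python 3.11.15 was used for the other steps.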

Additional observations from a re-analysis of the deposited data

Results flagged for a closer look

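For 11 of the 50 tested genes 1 mouse stood apart from the other 3 on the log2(CPM + 1) scale, with a gap to the nearest library above Dixon's 95% limit for 4 samples. That is 22.0%, where 20.0% of all 18522 tested genes met it. The limit is set for about 1 in 20 groups of normally distributed values. A gene with counts in only 1 library, such as Kcnj3 or Adcy5, passes it by construction. These shares therefore cannot be set against that rate. Mouse 3 was high for Oprl1 (20.0 CPM), Gnb4 (30.5 CPM), Kcnj3 (0.568 CPM) and Adcy5 (1.34 CPM). Mouse 4 was high for Rgs4 (6.35 CPM) and Adcy3 (4.08 CPM), and mouse 1 for Rgs1 (943 CPM). Mouse 1 was low for Gng2 (62.0 CPM), Arrb1 (5.69 CPM) and Kcnj9 (0 CPM), and mouse 2 was low for Prkacb (35.7 CPM).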

How the results depend on the processing

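The 19 calls above 10 CPM were 18 to 20 under the other settings and 23 without mice 1 and 2; the 18 came from DESeq2, which gave no adjusted p for 13 genes, Rgs1 among them. Calls below 10 CPM went from 0 to 1 with no filter, 2 with DESeq2 and 12 with limma-voom for the 50 genes, and from 0 to 2, 2 and 16 for the other pathway genes, whose calls above were 29 to 33 over all settings. Some levels that were not called changed sign. limma-voom takes its mean over log values, which lies below the log of the mean level where libraries differ. With limma-voom they were Oprk1 -3.05, Gnao1 -0.0838, Gnb4 -0.23, Gng3 -1.90, Rgs14 -0.0698 and Adcy9 -0.0585 (log2 relative to 10 CPM). Without mice 1 and 2 they were Oprl1 0.0734, Pdyn 0.60, Gnaz 0.45, Gng4 0.245, Rgs7 0.62, Rgs14 -1.06, Adcy2 0.30 and Adcy9 -0.25. Leaving out 1 mouse gave ranges of -2.34 to 0.26 for Pdyn, -0.0757 to 1.32 for Gnao1, -0.79 to 0.53 for Gnb4, -0.0634 to 1.02 for Grk3, -4.92 to 0.0558 for Rgs7, -0.27 to 0.55 for Rgs14 and -0.13 to 0.41 for Adcy9. Pdyn stood at 0.26 without mouse 1 and 0.19 without mouse 4. Without length scaling the log2 ratios Gnb1 to Gnb2, Rgs10 to Rgs2 and Prkaca to Prkacb were 0.26, -0.51 and -1.59. DESeq2's size factors moved the median level of all genes by 0.0015. At these depths levels under 3 counts (0.0278 to 0.0348 CPM) could not be told from 0. No paired comparison of groups was possible because the design has a single group, and the only pairing was of genes within a mouse.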
